A study of Mus musculus with 12 samples.

Results

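The genes described here are interferon-stimulated genes of the mouse kidney, among them the guanylate-binding proteins and immunity-related GTPases. They were chosen as a named list of 39 genes, of which 33 had a probe set annotated to a single gene, out of 19938 genes measured. Where a gene had several probe sets, the one with the highest mean over all arrays was used. Isg15, Gbp2, Gbp6, Igtp and Irgm2 stand only on probe sets annotated to several genes, and these genes and Ifi44 were not analysed here. All 33 measured genes entered the test, since no filter on low values was applied.

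Kidney RNA from female mice was hybridised to 12 whole-transcript arrays in 3 groups of 4. KL null mice, which lack klotho, were of a mixed background labelled 129/SvEv/C57BL/6 and received 100 µl saline. Wild-type mice labelled C57BL/6 received either 500 ng per g body weight of recombinant FGF23, a bone hormone that needs klotho as its co-receptor, or 100 µl saline as vehicle. All mice had been kept for 5 to 8 weeks on standard diet, were injected once into the peritoneum and were killed 1 hour later. Every KL null array carries the mixed strain label and no wild-type array does, even though littermates are named as the wild-type source, so the effects of genotype and strain cannot be told apart. The labels do not say whether each of the 4 replicates was a mouse of its own, and the spread behind each p-value may be technical.

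Interferons are secreted cytokines, and cells release those of type I after sensing viral or bacterial nucleic acids. Type I interferons signal through JAK kinases to transcription factors that bind the interferon-stimulated response element (ISRE), and interferon-gamma acts mainly on genes that carry the gamma-activated site (GAS). The induced genes encode sensors of viral RNA, proteins that block viral replication, GTPases that attack the vacuoles of intracellular pathogens, and the proteasome and peptide transporter subunits that supply MHC class I. In kidney these genes can be expressed by tubule, endothelial and immune cells alike. In whole-kidney RNA, fewer cells of a type and less RNA per cell cannot be told apart.

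The promoters of the 4 genes whose level differed in KL null kidney, and of Gbp7, the neighbour of Gbp3, are shown because interferon response elements commonly lie close to the start of such genes. Each is the stretch of 250 bases before an annotated start, read 5′ to 3′ on the strand of the gene (RefSeq, GRCm38.p6), at chr3:142559794-142560043 on the plus strand for Gbp3, chr3:142530086-142530335 on the plus strand for Gbp7, chr12:26456453-26456702 on the minus strand for Rsad2, chr7:141266425-141266674 on the minus strand for Irf7 and chr19:34550444-34550693 on the plus strand for Ifit2. Gbp3 and Ifit2 have 2 annotated windows each, and the first is shown. Capitals mark matches to ISRE-like letters (TTTC, any 2 bases, TTTC) or GAS-like letters (TTC, any 3 bases, GAA) on either strand.
Gbp3: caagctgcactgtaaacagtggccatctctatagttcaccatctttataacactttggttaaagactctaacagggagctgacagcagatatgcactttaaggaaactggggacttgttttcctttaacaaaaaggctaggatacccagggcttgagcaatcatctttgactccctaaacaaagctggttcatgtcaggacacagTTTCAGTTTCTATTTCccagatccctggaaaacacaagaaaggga
Gbp7: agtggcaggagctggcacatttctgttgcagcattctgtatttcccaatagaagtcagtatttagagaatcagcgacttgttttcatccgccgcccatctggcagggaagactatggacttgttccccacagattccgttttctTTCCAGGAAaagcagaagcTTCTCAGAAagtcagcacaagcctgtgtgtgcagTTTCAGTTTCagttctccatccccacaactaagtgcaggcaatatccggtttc
Rsad2: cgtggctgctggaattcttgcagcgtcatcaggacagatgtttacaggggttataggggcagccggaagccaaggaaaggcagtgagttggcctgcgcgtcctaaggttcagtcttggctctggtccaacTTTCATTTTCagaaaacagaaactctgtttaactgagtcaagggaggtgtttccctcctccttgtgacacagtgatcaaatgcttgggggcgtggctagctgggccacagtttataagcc
Irf7: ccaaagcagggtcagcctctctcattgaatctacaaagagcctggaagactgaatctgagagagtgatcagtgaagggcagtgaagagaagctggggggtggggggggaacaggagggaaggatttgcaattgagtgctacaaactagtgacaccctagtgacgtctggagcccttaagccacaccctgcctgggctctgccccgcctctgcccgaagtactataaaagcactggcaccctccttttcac
Ifit2: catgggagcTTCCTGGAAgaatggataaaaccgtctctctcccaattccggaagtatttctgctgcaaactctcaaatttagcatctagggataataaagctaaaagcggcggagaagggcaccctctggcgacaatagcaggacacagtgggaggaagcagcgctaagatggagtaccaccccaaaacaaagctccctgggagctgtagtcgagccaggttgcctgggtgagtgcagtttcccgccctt
Gbp3 carries 2 overlapping ISRE-like matches that begin 45 and 39 bases before the start. Gbp7 carries 1 that begins 53 bases before it, with GAS-like matches at 106 and 87 bases. Rsad2 has 1 ISRE-like match at 120 bases, Ifit2 a GAS-like match at 241 bases in this window, and Irf7 has neither set of letters here. Of the 33 measured genes, 24 were in the promoter table, and 11 of these (45.83%) held an ISRE-like match and 7 (29.17%) a GAS-like match in at least 1 window. Among all 27025 genes in the table the shares were 3.46% and 8.13%. All 3 GTPase genes in the table (Gbp3, Gbp7 and Irgm1) held an ISRE-like match, as did 7 of 11 antiviral effectors. None of the 3 antigen-processing genes did in these windows. A match is a description of the letters and not a measured binding site.

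Values are log2 expression values made by the authors with RMA, a method that adjusts for background and brings arrays to a common distribution, so a difference of 1 is a doubling of signal. Levels of different probe sets are not comparable, and each gene was compared only with itself across arrays. Genes are said to have risen or fallen only where limma, fitted over all 19938 genes and 12 arrays with Benjamini-Hochberg adjustment, gave an adjusted p below 0.05. The targeted gene Kl stood at 9.66, 9.76, 9.66 and 9.80 on the KL null arrays, against 10.45, 10.54, 10.61 and 10.44 after FGF23 and 10.67, 10.45, 10.74 and 10.58 with vehicle. The KL null arrays lay below all others (log2 difference from vehicle -0.89, adjusted p = 1.75e-05), and whether this probe set lies in the disrupted part of Kl was not tested. WT FGF23 replicates 1 and 2 had the narrowest distribution of log2 values, with standard deviations of 2.166 and 2.167 against 2.195 to 2.281 on the other 10 arrays. KL null replicate 1 stood apart from the other KL null arrays for the GTPase and antigen-processing genes, and the values of these genes are therefore given with and without it.

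**Figure D1:**
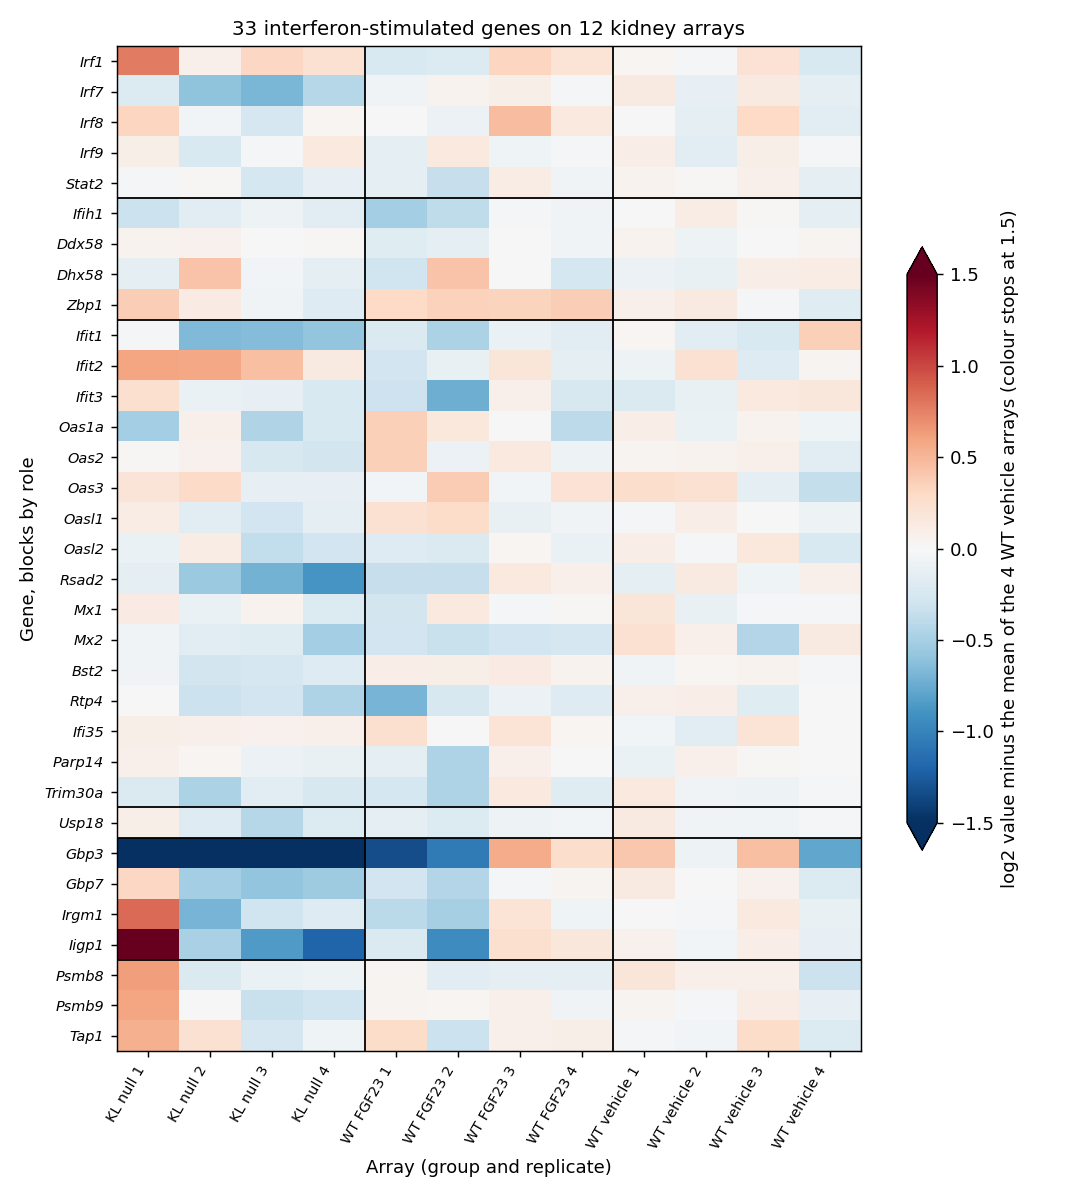
Each row is 1 of the 33 genes, in blocks by role, and each column an array; colour gives the log2 value minus the mean of the 4 WT vehicle arrays, and stops at 1.5. Gbp3 is lower on the 4 KL null arrays and on WT FGF23 replicates 1 and 2 and WT vehicle replicate 4, and KL null replicate 1 is high for Iigp1, Irgm1, Irf1, Psmb8, Psmb9 and Tap1.

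KL null against WT, both with vehicle, asks how the kidney without klotho differs at these genes. Gbp3, a guanylate-binding protein induced by interferon-gamma, fell 5.33-fold, and Irf7, the transcription factor that amplifies type I interferon production, and Rsad2, which encodes the antiviral enzyme viperin, fell by 0.48 and 0.58 on the log2 scale. Ifit2, which encodes a protein that inhibits the translation of viral RNA, rose by 0.44. Of the 33 genes 3 fell, 1 rose and 29 did not pass. Over all genes tested, 4.44% fell (885 of 19938), 3.58% rose (713) and 8.01% passed in either direction, so 4 of 33 genes is close to the general share in this comparison. The median log2 difference was -0.095 over the 33 genes and 0.025 over all genes. Of the 33 differences 23 were negative and 10 positive, against 43.4% negative and 56% positive over all genes. The median of the 33 genes was -0.151 without KL null replicate 1 (27 negative), -0.144 without WT vehicle replicate 4 (26 negative), -0.041 without KL null replicate 3 (21 negative) and -0.053 without KL null replicate 4 (18 negative). KL null replicate 1 was high in most of these genes, so the lower median without it is no test.

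The count depended on single arrays. It was 2 without WT vehicle replicate 1 or 4 or KL null replicate 2, and 1 (Gbp3) without WT vehicle replicate 3 or KL null replicate 3. It was 6, all lower, without KL null replicate 1. That array was singled out by its high values, so the count without it is no test of a fall. Over all genes tested the counts moved as well. From 713 higher and 885 lower they became 352 and 479 without WT vehicle replicate 1, and 367 and 461 without replicate 3. Without WT vehicle replicate 4 they were 588 and 885. Without KL null replicates 1, 2 and 3 in turn they were 868 and 860, 435 and 568, and 348 and 508.

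**Figure D2:**
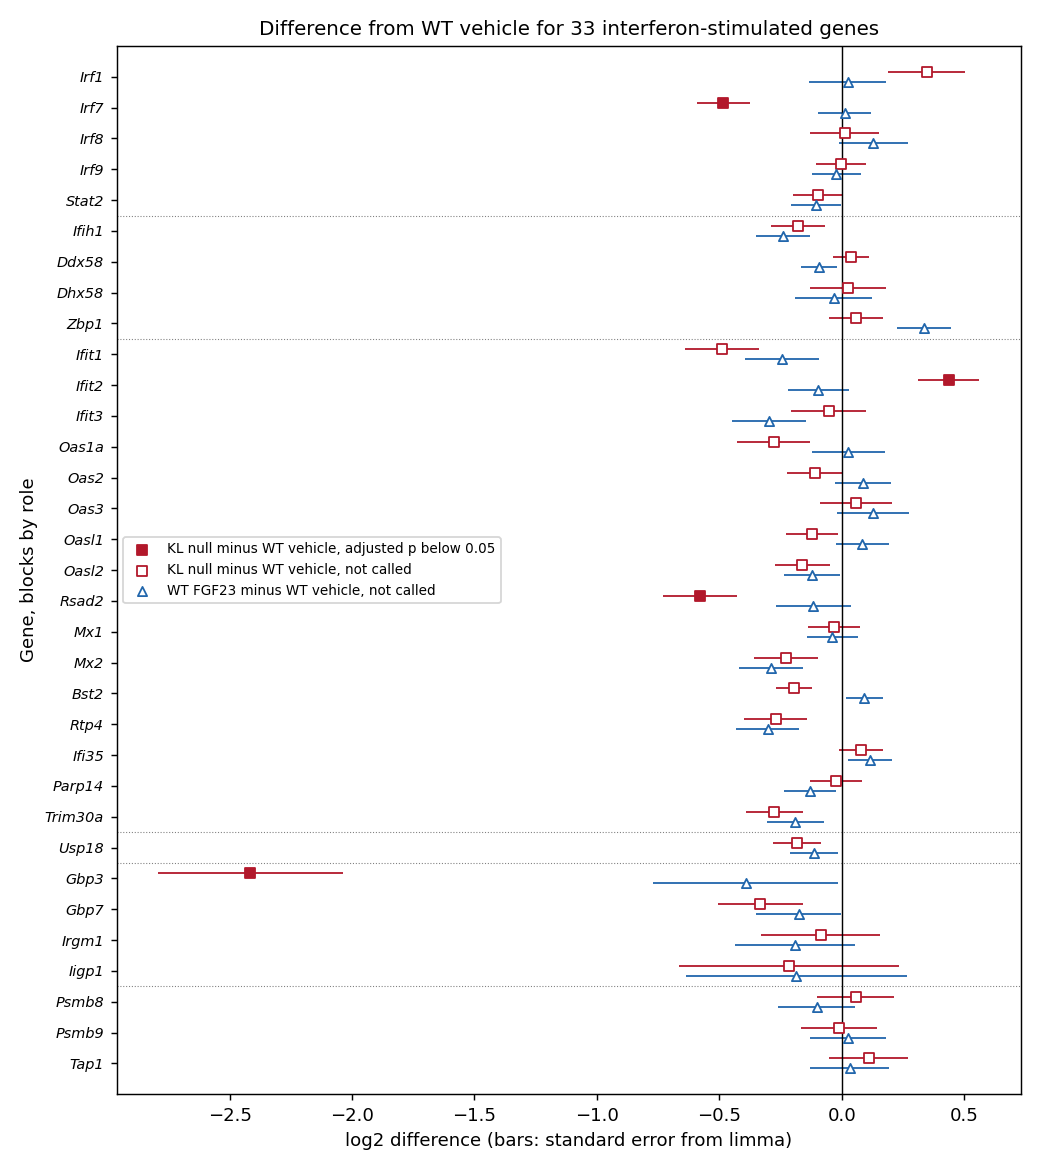
Log2 differences from WT vehicle with the standard error from limma for KL null (red squares) and WT FGF23 (blue triangles), in blocks by role; filled symbols have an adjusted p below 0.05. Gbp3 lies at -2.42 in KL null, and the other 32 genes lie between -0.58 and 0.44 in both comparisons.

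The guanylate-binding proteins (GBPs) and immunity-related GTPases (IRGs) are families of interferon-gamma-induced proteins that assemble on pathogen vacuoles. Gbp3 stood at 8.28, 7.44, 7.59 and 7.34 on KL null replicates 1 to 4, against 10.48, 10.00, 10.53 and 9.30 with vehicle. Every KL null array lay below every vehicle array, by at least a log2 unit. The means were 7.66 ± 0.42 and 10.08 ± 0.57 (SD, n = 4 each), a log2 difference of -2.42 (SE 0.378, limma adjusted p = 0.0013). An exact permutation test of the 4 against 4 arrays gave a two-sided p of 0.0286, the smallest such a test can give. The difference stayed between -2.67 and -2.23 and passed in all 23 alternative settings, with an adjusted p of at most 0.0127. After FGF23, Gbp3 stood at 8.75, 9.02, 10.63 and 10.34, so wild-type arrays also differed among themselves. WT FGF23 replicates 1 and 2 and WT vehicle replicate 4 were the low ones, yet each lay above all 4 KL null arrays.

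The other 3 measured GTPases did not pass. Gbp7, which lies next to Gbp3 on chromosome 3, had a log2 difference of -0.33 (adjusted p = 0.295), Irgm1, a regulator of the IRG family and of autophagy, -0.09 (0.899) and Iigp1, an effector IRG that disrupts parasite vacuoles, -0.21 (0.855). These 3 genes differed widely within KL null. Iigp1 was at 8.80 on KL null replicate 1 and at 6.64, 6.28 and 5.92 on replicates 2 to 4, against 7.19, 7.08, 7.23 and 7.0 with vehicle. The first array thus lay above all vehicle arrays and the other 3 KL null arrays below all of them. Irgm1 showed 9.41, 7.86, 8.26 and 8.37 in KL null, against 8.55, 8.53, 8.71 and 8.45 with vehicle, with the same split. Gbp7 showed 8.95, 8.12, 8.04 and 8.10 in KL null, against 8.77, 8.64, 8.70 and 8.43 with vehicle, again with replicate 1 above and the rest below. Without KL null replicate 1, the difference was -0.55 for Gbp7 (SE 0.118, limma adjusted p = 0.0104) and -0.84 for Iigp1 (SE 0.235, adjusted p = 0.0395). That of Irgm1 was -0.40 (adjusted p = 0.157). This array was left out because it was high for these genes. The p-values without it are therefore no test of a fall.

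**Figure D3:**
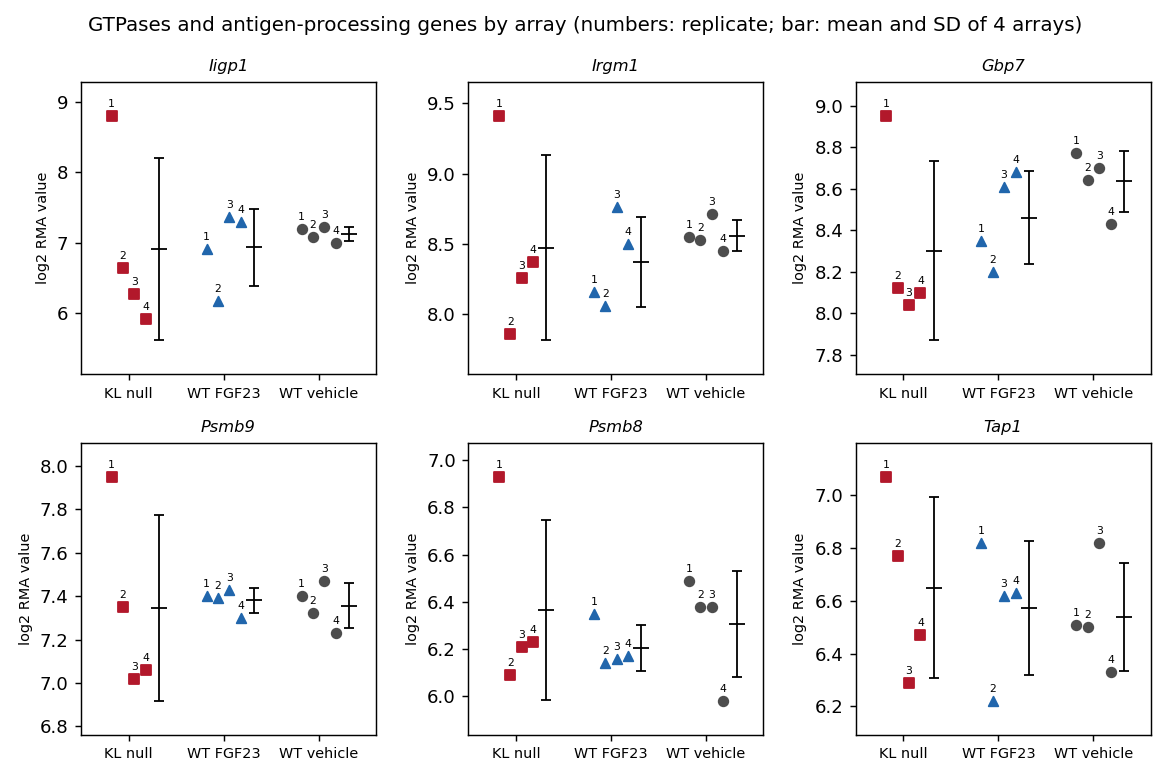
Log2 RMA values of 3 GTPase and 3 antigen-processing genes on every array, numbered by replicate, with mean and SD of each group of 4 beside the points. KL null replicate 1 is the highest of the 12 arrays for all 6 genes, at 8.80 for Iigp1 and 7.95 for Psmb9.

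Antigen-processing genes followed the same array. Psmb8 and Psmb9, catalytic subunits of the immunoproteasome, and Tap1, a subunit of the peptide transporter that loads MHC class I, lie next to each other on chromosome 17. None passed in KL null, with log2 differences of 0.06, -0.01 and 0.11 and adjusted p-values of 0.894, 0.982 and 0.778. Without KL null replicate 1 the differences of Psmb8, Psmb9 and Tap1 were -0.13, -0.21 and -0.03, so the sign of Psmb8 and Tap1 turned, and none passed (adjusted p of 0.217 to 0.953). Psmb9 stood at 7.95, 7.35, 7.02 and 7.06 in KL null, against 7.40, 7.32, 7.47 and 7.23 with vehicle. Psmb8 stood at 6.93 on KL null replicate 1 and at 6.09 to 6.23 on the other 3, against 5.98 to 6.49 with vehicle. Tap1 stood at 7.07 on KL null replicate 1 and at 6.29 to 6.77 on the others, against 6.33 to 6.82 with vehicle. Replicate 1 exceeded the mean of KL null replicates 2 to 4 by 1.75-fold for Psmb9, 1.69-fold for Psmb8 and 1.47-fold for Tap1, against 5.74-fold for Iigp1, 2.37-fold for Irgm1, 1.82-fold for Gbp7 and 1.77-fold for Gbp3. These genes were singled out after their values were seen. KL null replicate 1 was the highest of the 12 arrays in 9 of the 33 genes (27.3%), against 9.3% of all genes tested, and lay above the mean of its 3 group mates in 30 of 33, against 11110 of 19938.

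The same array stood high beyond the 33 genes. Of 8 other measured GTPases of the GBP and IRG type, KL null replicate 1 was above the mean of its group mates in all 8 and the highest of the 12 arrays in 6. Gbp4 read 7.95 there and 6.62 to 6.84 on the other KL null arrays, against 7.16 to 7.64 with vehicle. Gm12250, an IRG-type gene beside Igtp on chromosome 11, read 6.80 there and 5.09 to 5.70 on the others, against 5.65 to 6.40 with vehicle. None of these 8 genes passed in KL null over all 4 arrays (limma adjusted p of 0.0782 to 0.975, with 2 at an unadjusted p below 0.05, against 21.3% of all genes tested). The probe set for Ifng, interferon-gamma itself, read 4.88 on KL null replicate 1 and 4.65, 4.54 and 4.36 on the others, against 4.32 to 4.53 with vehicle and 4.57 to 4.88 after FGF23. The mean log2 value of 14 T and NK cell markers, Ifng among them, was 5.14 on that array and 4.71 to 4.90 on the other KL null arrays, against 4.89 to 5.08 after FGF23 and 4.67 to 4.92 with vehicle. The mean of 9 neutrophil markers was 4.28 on that array and 3.96 to 4.14 on the other KL null arrays, against 4.11 to 4.32 after FGF23 and 3.97 to 4.14 with vehicle. These are dim probe sets. KL null means of single neutrophil markers were 3.2 to 5.1 and of T and NK cell markers 3.4 to 6.2, against KL null array medians of 6.19 to 6.29. Whether they stood above background was not tested. KL null replicate 1 also had the narrowest distribution of log2 values in its group, with a standard deviation of 2.195 against 2.217 to 2.281 on the others. WT FGF23 replicates 1 and 2 had like values: 4.88 and 4.80 for Ifng, 5.08 and 5.00 for T and NK cell markers, and 4.32 and 4.27 for neutrophil markers. Their standard deviations were 2.166 and 2.167. On these 2 arrays the GTPases were low and not high, with Gbp3 at 8.75 and 9.02 and Iigp1 at 6.91 and 6.18. Irgm1 and Gbp7 also lay below all vehicle arrays there. The part of these measures in the GTPase values was not tested.

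Among the 5 transcription factors 1 fell and 4 did not pass, while 4.44% of all genes tested fell. Irf7 stood at 7.49, 7.09, 7.01 and 7.27 in KL null, against 7.83, 7.57, 7.83 and 7.56 with vehicle. The groups did not overlap, with means of 7.21 ± 0.21 and 7.70 ± 0.15 (SD, n = 4 each) and a log2 difference of -0.48 (SE 0.107, limma adjusted p = 0.0123; exact permutation p = 0.0286). Without WT vehicle replicate 1 or 3 or KL null replicate 3 the adjusted p lay just above the threshold, at 0.0507 or less. Without KL null replicate 1 it was 0.00267. That array was the highest of KL null for Irf7, so the value without it is no test of a fall. Irf7 after FGF23 read 7.64, 7.75, 7.78 and 7.67, within the range of the vehicle arrays. Irf1, an early target of interferon-gamma, read 7.95, 7.25, 7.48 and 7.40 in KL null, against 7.20, 7.16, 7.39 and 6.94 with vehicle, a difference of 0.35 that did not pass (adjusted p = 0.216) and was 0.20 without KL null replicate 1 (adjusted p = 0.481). Its values are given after they were seen. Its second probe set had a difference of 0.15 (adjusted p = 0.505). Irf8, a factor of myeloid cells, and Irf9 and Stat2, partners in the type I interferon complex, had differences of 0.01, -0.0025 and -0.095 with adjusted p-values of 0.675 to 0.993.

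Among 16 antiviral effectors 1 rose, 1 fell and 14 did not pass, while 3.58% of all genes tested rose and 4.44% fell. Rsad2 stood at 8.01, 7.60, 7.45 and 7.27 in KL null, against 8.02, 8.29, 8.09 and 8.24 with vehicle. The groups did not overlap, although KL null replicate 1 lay only 0.01 below the lowest vehicle array. Means were 7.58 ± 0.32 and 8.16 ± 0.13 (SD, n = 4 each), with a log2 difference of -0.58 (SE 0.151, limma adjusted p = 0.0293; exact permutation p = 0.0286). The call was lost without WT vehicle replicate 2, 3 or 4 or KL null replicate 2, 3 or 4 (adjusted p up to 0.0926). Without KL null replicate 1 the difference was -0.72 (limma adjusted p = 0.00451). That array was the highest of KL null for Rsad2, so the value without it is no test of a fall. Cmpk2, a mitochondrial nucleotide kinase whose gene lies next to Rsad2 on chromosome 12, is described with the other pathway genes.

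The IFIT family genes, which lie together on chromosome 19, gave different values. Ifit2 stood at 8.11, 8.10, 7.97 and 7.66 in KL null, against 7.45, 7.75, 7.33 and 7.56 with vehicle. Replicate 4 of KL null lay inside the vehicle range and the other 3 above it. The difference of 0.44 (SE 0.125, limma adjusted p = 0.0447; exact permutation p = 0.0571) held its sign in every setting run but passed in only 11 of 23. It did not pass after a further quantile normalization (0.0512), with arrays centred on their median (0.0745), with array spread as a covariate (0.0554), or without WT FGF23 replicate 2 or 4, WT vehicle replicate 1, 3 or 4 or KL null replicate 1, 2 or 3 (0.0547 to 0.144). Ifit1, whose product binds viral RNA lacking cap methylation, read 7.18, 6.55, 6.56 and 6.62 in KL null, against 7.25, 7.05, 6.99 and 7.57 with vehicle. Its difference of -0.49 did not pass (SE 0.151, limma adjusted p = 0.0614, exact permutation p = 0.0857). Without KL null replicate 1, the array on which Ifit1 was high, the difference was -0.64 (limma adjusted p = 0.00741). That value is no test of a fall, since the array was singled out by its values. Ifit3 had a difference of -0.05 (adjusted p = 0.9).

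**Figure D4:**
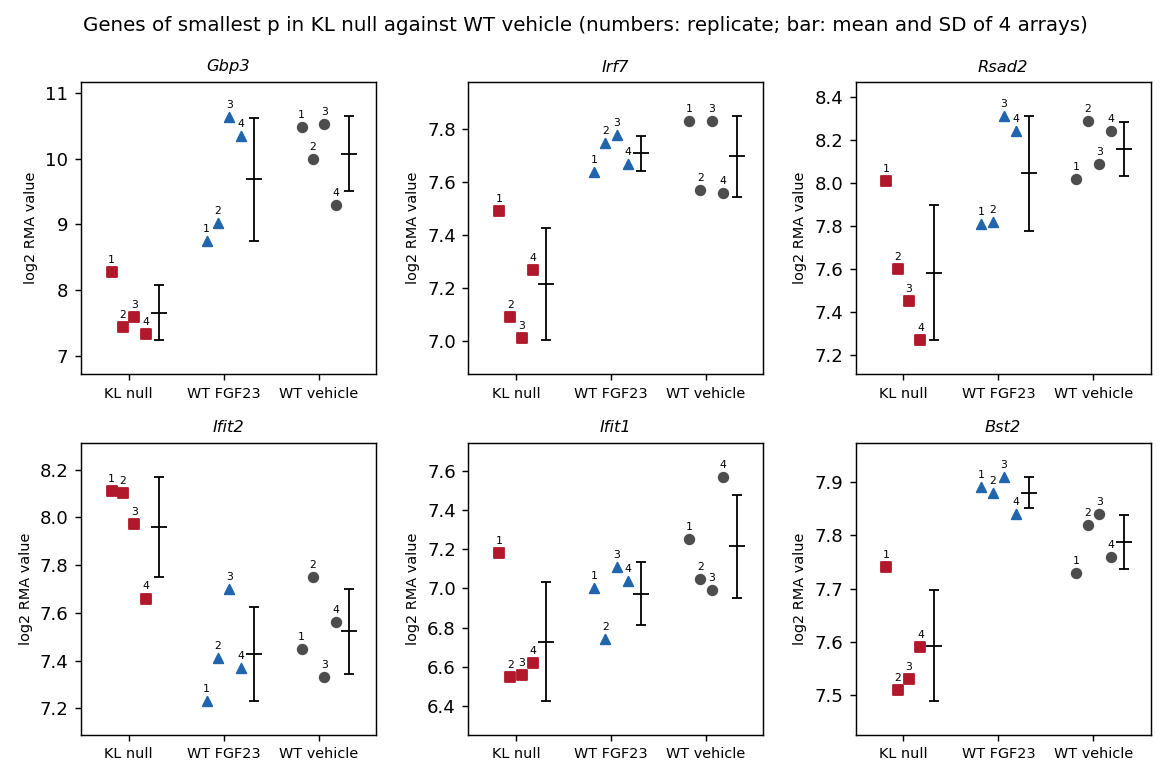
Log2 RMA values of the 6 genes of smallest p in KL null against WT vehicle, numbered by replicate, with mean and SD of each group of 4. KL null and vehicle arrays do not overlap for Gbp3, Irf7 and Rsad2; Ifit2 is higher on 3 KL null arrays than on any vehicle array, and KL null replicate 1 lies among the vehicle arrays for Ifit1 and Bst2.

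Bst2, which encodes tetherin, an anchor that holds budding virions on the cell, read 7.74, 7.51, 7.53 and 7.59 in KL null, against 7.73, 7.82, 7.84 and 7.76 with vehicle. Its difference of -0.20 did not pass (SE 0.0749, limma adjusted p = 0.134; exact permutation p = 0.0571). Trim30a, a ubiquitin ligase of the TRIM family, was below all vehicle arrays on all 4 KL null arrays, at 7.70 to 8.01 against 8.10 to 8.33, but did not pass (-0.28, adjusted p = 0.18). With it, 4 of the 33 genes did not overlap with KL null lower and 0 with KL null higher, against 7.44% and 6.35% of all genes tested. Among the oligoadenylate synthetases, which activate an antiviral ribonuclease, and their relatives, Oas1a, Oas2, Oas3, Oasl1 and Oasl2 had differences of -0.28 to 0.06 (adjusted p of 0.313 to 0.879). The dynamin-like Mx1 and Mx2, the chaperone Rtp4, the PARP family member Parp14 and Ifi35 had differences of -0.27 to 0.08 (adjusted p of 0.246 to 0.941). The sensors of viral RNA Ifih1 (MDA5), Ddx58 (RIG-I) and Dhx58 (LGP2) and the Z-nucleic acid sensor Zbp1 did not pass, at -0.18 to 0.06 (adjusted p of 0.389 to 0.957). Usp18, which removes ISG15 from proteins and damps the type I receptor, was at -0.18 (adjusted p = 0.323).

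The injected wild-type mice show whether these genes differ 1 hour after the hormone, set against vehicle. Of the 33 genes 0 passed in limma, and 4 had an unadjusted p below 0.05; over all genes tested 0.0853% passed (17 of 19938), 0.0802% higher and 0.00502% lower, and 15.4% had an unadjusted p below 0.05. The count was 0 in all 23 alternative settings. The median log2 difference was -0.095 over the 33 genes and 0.038 over all genes. Of the 33 differences 21 were negative and 12 positive, against 40.9% negative and 58.5% positive over all genes. Without WT FGF23 replicates 1 and 2 the median of the 33 genes was 0.01. Both of these arrays lay below replicates 3 and 4 in 17 of the 33 genes, so that shift is no test.

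Zbp1, which senses Z-form nucleic acids and triggers cell death, had the smallest p. It stood at 5.87, 5.92, 5.91 and 5.94 after FGF23, against 5.65, 5.71, 5.54 and 5.39 with vehicle. The groups did not overlap, and it was the only one of the 33 genes of which this was so (1 higher, 0 lower), while 4.09% of all genes did not overlap with FGF23 higher and 2.92% with FGF23 lower. The difference of 0.34 (SE 0.11, limma adjusted p = 0.252; exact permutation p = 0.0286) did not pass over all genes in any of 23 alternatives (adjusted p from 0.147 to 0.996).

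Rtp4 read 6.87, 7.33, 7.48 and 7.38 after FGF23, against 7.65, 7.67, 7.39 and 7.56 with vehicle (difference -0.30, adjusted p = 0.298; exact permutation p = 0.0571). Mx2 read 4.18, 4.13, 4.18 and 4.21 after FGF23, against 4.69, 4.54, 4.03 and 4.60 with vehicle (difference -0.29, adjusted p = 0.312; exact permutation p = 0.143). For both genes a single vehicle array, replicate 3, lay within or below the FGF23 range. Ifih1 read 7.61, 7.74, 8.10 and 8.06 after FGF23, against 8.12, 8.23, 8.14 and 7.98 with vehicle (difference -0.24, adjusted p = 0.318; exact permutation p = 0.143). Ifit3 read 7.45, 7.03, 7.84 and 7.52 after FGF23, against 7.54, 7.65, 7.91 and 7.93 with vehicle (difference -0.30, adjusted p = 0.357; exact permutation p = 0.143). Trim30a read 7.91, 7.72, 8.32 and 8.00 after FGF23, against 8.33, 8.12, 8.10 and 8.16 with vehicle (difference -0.19, adjusted p = 0.427; exact permutation p = 0.229). In Rtp4, Ifih1, Ifit3 and Trim30a both FGF23 replicates 1 and 2 lay below replicates 3 and 4. Without those arrays the differences of these 4 genes were -0.14, -0.04, -0.08 and -0.02, and without FGF23 replicate 1 alone that of Rtp4 was -0.17. As the arrays left out were the low ones for these genes, smaller differences were fixed in advance and test nothing.

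**Figure D5:**
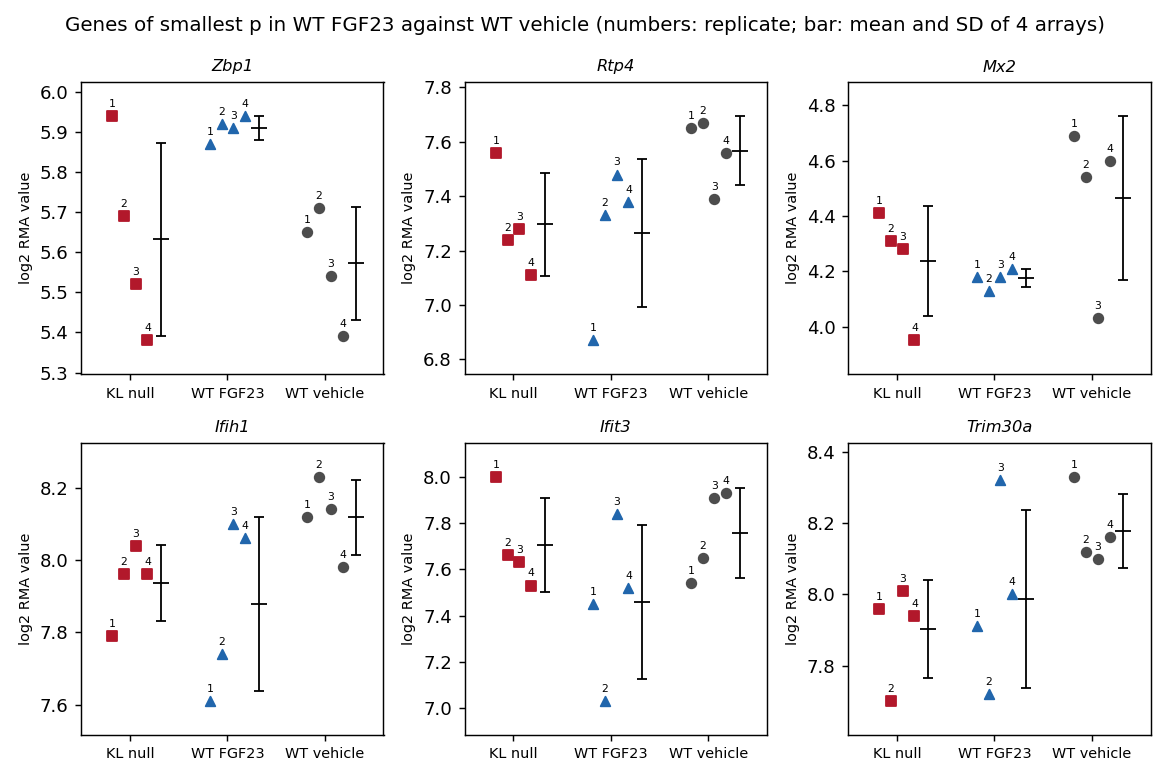
Log2 RMA values of the 6 genes of smallest p in WT FGF23 against WT vehicle, numbered by replicate, with mean and SD of each group of 4. Zbp1 is the one gene whose FGF23 and vehicle arrays do not overlap; for Rtp4, Ifih1, Ifit3 and Trim30a FGF23 replicates 1 and 2 lie below replicates 3 and 4.

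FGF23 replicates 1 and 2 differed from replicates 3 and 4 across the family. In 17 of the 33 genes (51.5%) both lay below replicates 3 and 4, and in 2 (6.1%) both lay above, while over all genes tested the shares were 19.0% below and 36.4% above. All 4 GTPases were among the 17. Their means on replicates 1 and 2, beside those on replicates 3 and 4, were 8.88 and 10.48 for Gbp3, 6.54 and 7.34 for Iigp1, 8.11 and 8.63 for Irgm1, and 8.27 and 8.64 for Gbp7. The differences of these 4 genes from vehicle were -0.39, -0.185, -0.19 and -0.175 over all FGF23 arrays and 0.41, 0.21, 0.07 and 0.01 without replicates 1 and 2, and none passed in limma in either case. Since all 4 genes were low on the arrays left out, higher values without them were fixed in advance. Gbp2b, which lies next to Gbp3 on chromosome 3, read 4.67 and 5.71 on FGF23 replicates 1 and 2 and 7.17 and 6.45 on replicates 3 and 4, against 6.50, 7.01, 7.07 and 4.57 with vehicle. The same 3 wild-type arrays were thus low for Gbp2b and for Gbp3. In KL null, Gbp2b read 7.78, 6.63, 6.53 and 6.42, within or above the wild-type values (difference from vehicle 0.55, adjusted p = 0.64), while Gbp3 was below them. Gbp2b was named after its values were seen.

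The spread within groups differed too. The SD over 4 arrays exceeded 0.3 in 10 of the 33 genes in KL null (30.3%) and in 6 after FGF23 (18.2%), against 1 with vehicle (3.0%). Over all genes tested these shares were 5.8%, 7.2% and 4.2%. The largest SD was 1.29 for Iigp1 in KL null, and 0.94 after FGF23 and 0.57 with vehicle, both for Gbp3. Over KL null replicates 2 to 4 alone, the SD was 0.36 for Iigp1 and 0.31 for Dhx58, and at most 0.27 for the other genes.

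Other genes of the interferon pathway were counted from a list of 186 genes, of which 152 were measured. In KL null 7 rose, 6 fell and 139 did not pass, against 3.58% and 4.44% of all genes tested. The 13 passing genes were 5 without WT vehicle replicate 1, 7 without WT vehicle replicate 3 and 7 without KL null replicate 3. Over all genes tested, 713 higher and 885 lower became 352 and 479, 367 and 461, and 348 and 508 without these arrays in turn. None of 16 interferon genes passed, with adjusted p-values of 0.137 and above and 1 gene at an unadjusted p below 0.05 (21.3% of all genes tested). Among receptors and the JAK-STAT relay 1 of 17 rose and 1 fell. Stat3, the factor downstream of IL-6 type cytokines, read 9.03, 9.62, 9.46 and 9.71 in KL null, against 9.10, 8.84, 9.07 and 8.95 with vehicle (log2 difference 0.46, limma adjusted p = 0.0294), with replicate 1 inside the vehicle range. Il10rb, a shared receptor chain for interferon-lambda and IL-10, read 9.27 to 9.37 in KL null, against 9.60 to 9.72 with vehicle, and fell by 0.34 (adjusted p = 0.0143).

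Among sensors and adaptors 2 of 17 rose, against 3.58% of all genes tested. They were Tlr13 and Tlr8, both endosomal receptors for RNA. Tlr13 read 5.06, 5.88, 5.66 and 5.73 in KL null, against 4.23, 4.71, 4.82 and 4.43 with vehicle (log2 difference 1.03, limma adjusted p = 0.00848). Tlr8 read 3.90 to 4.31 in KL null, against 3.62 to 3.76 with vehicle (0.41, adjusted p = 0.0156). Neither overlapped between the groups, while 6.35% of all genes tested did not overlap with KL null higher. Both read below the array medians of 6.15 to 6.29, Tlr8 far below. Whether they stood above background was not tested. Among 77 other interferon-stimulated effectors 3 rose and 4 fell, close to the shares of all genes tested (3.58% and 4.44%). Cmpk2 read 6.52, 6.36, 6.2 and 6.18 in KL null, against 6.92, 7.03, 7.09 and 6.99 with vehicle, a decrease with no overlap (-0.69, SE 0.103, adjusted p = 0.000857). Ifitm1, a membrane protein that restricts viral entry, rose by 0.46 (adjusted p = 0.0094). Among 17 genes of antigen processing and presentation 1 rose and 1 fell, the proteasome activator subunit Psme1 by 0.32 (adjusted p = 0.0319) and the chaperone calreticulin, Calr, which fell by 0.40 (adjusted p = 0.0173). After FGF23, 0 of the 152 genes passed in limma and 23 had an unadjusted p below 0.05, against 0.0853% and 15.4% of all genes tested.

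Markers of immune cells were read beside these values. In KL null 7 of 14 macrophage and monocyte markers rose and 1 fell, against 3.58% and 4.44% of all genes tested. Lyz2, the lysozyme of myeloid cells, rose by 1.71 (limma adjusted p = 0.0011). Csf1r fell by 0.55 (adjusted p = 0.0321), with no overlap. The other 6, Adgre1, Cd14, Cx3cr1, Mrc1, Fcgr1 and Aif1, did not pass. The mean log2 value of the list ran from 6.68 to 7.27 in KL null, against 6.31 to 6.74 with vehicle. KL null replicate 1, the array with the high GTPase values, had the lowest macrophage value of its group, at 6.68 against 7.13 to 7.27 on the other 3. None of 14 T and NK cell markers, 6 B cell markers, 9 neutrophil markers or 10 endothelial markers passed (limma, with 0, 1, 0 and 5 at an unadjusted p below 0.05, against 21.3% of all genes). Of the 10 endothelial markers 9 had a negative difference, and the mean of the list was 8.69 to 8.81 in KL null, against 8.83 to 8.99 with vehicle, with no overlap. Of dendritic cell markers 1 of 11 rose, Itgax, against 3.58% of all genes tested. Bst2 is also in the dendritic cell list. Of 8 tubule markers 4 fell, against 4.44% of all genes tested. The mean of the tubule list was 11.48 to 11.53 in KL null, against 11.61 to 11.75 with vehicle. After FGF23 0 of the 72 measured markers passed in limma, and 12 had an unadjusted p below 0.05, against 0.0853% and 15.4% of all genes tested. The part of these cell types in the values of the interferon-stimulated genes was not tested.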

How the data were processed

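Whole-kidney RNA was measured on 12 arrays. The authors deposited log2 values per probe set, and the submitters' processing notes name RMA and Partek 6.2. Probe-level settings are not given in the sources used here. No probe set was set against its background, and precision is limited by the number of arrays. Of 28853 probe sets, 21789 had 1 gene symbol in the platform annotation, 1621 had several and 5443 none, and 21698 matched the RefSeq gene table of GRCm38.p6. Of the measured genes of the list only Irf1 had more than 1 probe set. Whether probes of a GBP or IRG gene also bind a near-identical relative was not tested.

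Groups came from the sample titles. limma 3.58.1 in R 4.3.3 fitted 3 group means to all 12 arrays (lmFit, eBayes, two-sided, 9 residual degrees of freedom). Exact permutation tests used SciPy 1.17.1. On simulated data for KL null against WT over 19938 genes, 98% of changes of 1 and 66% of changes of 0.5 on the log2 scale were recovered, with 4.1% false calls. The simulation placed 100 changes of each size in random genes and drew noise independently for each gene. It held no deviations shared by many genes on an array, so these rates need not hold for the genes described here. The genes, the pathway and marker lists and the tests were chosen with earlier results of these data known. Genes given on every array are those called or, where fewer than 6 were called, the 6 of smallest p in a comparison; of the pathway lists with a call, the 2 of smallest p. Genes outside this rule that are given with array values, such as Irf1, Iigp1, Irgm1, Gbp7, Psmb8, Psmb9, Tap1, Gbp4, Gm12250, Ifng and Gbp2b, were named after their values were seen. Alternatives changed the normalization, covariates, weights, moderation, filter, probe set rule, samples and replicate block.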

Additional observations from a re-analysis of the deposited data

Results flagged for a closer look

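In 6 of 99 sets of 4 arrays (33 genes in 3 groups), 1 array lay further from its group mates than Dixon's 95% criterion allows, where chance gives about 5. KL null replicate 1 was the high array in 3 of them. Ifit1 stood at 7.18 there and at 6.55 to 6.62 on the other KL null arrays, Gbp7 at 8.95 and 8.04 to 8.12, and Psmb8 at 6.93 and 6.09 to 6.23. The other 3 belonged to wild-type arrays. Psmb8 stood at 6.35 on WT FGF23 replicate 1 and at 6.14 to 6.17 on the other FGF23 arrays. Usp18 stood at 6.75 on WT vehicle replicate 1 and at 6.56 to 6.58 on the other vehicle arrays, and Oas2 at 5.52 on WT vehicle replicate 4 and at 5.73 to 5.76 on the others.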

How the results depend on the processing

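The 4 counts and 12 gene differences were followed under 23 alternatives, 12 of them leaving out 1 array. The signs of all 33 differences were compared under 4 of these. Single pathway genes and markers were also in the fits, but their values under the alternatives are not given. In KL null against WT vehicle the number of passing genes of the family was 4 (1 higher, 3 lower) and 7 with array weights, and lay between 1 and 6 when 1 array was left out. It was 0 higher and 5 lower with arrays centred on their median and 0 higher and 3 lower after a further quantile normalization. For the other pathway genes it was 13 (7 higher, 6 lower), 27 with array weights and 20 without WT FGF23 replicates 1 and 2. It lay between 5 and 19 when 1 array was left out, and centring gave 6 higher and 11 lower. The counts over all genes shifted under the same settings. From 713 higher and 885 lower they became 1398 and 1454 with array weights and 453 and 1369 with centring. They were 769 and 837 after the further quantile normalization and 795 and 952 without WT FGF23 replicates 1 and 2. After FGF23 the counts were 0 in all alternatives but 1, where trended and robust moderation called 1 pathway gene. The cause of these changes was not tested. Without KL null replicates 1 and 2 Ifit2 had an adjusted p of 0.318. Ifit1 passed in 7 alternatives and Bst2 in 2. None of the 12 gene differences changed sign, and Mx2 had no value with the dimmest genes left out. Of all 33 genes, 4 changed sign in KL null without KL null replicate 1, 7 without KL null replicates 1 and 2 and 5 with array weights, and after FGF23 10 did without FGF23 replicates 1 and 2 and 3 with array weights; none of these passed with the sign turned. The groups share replicate numbers, but in neither comparison did every same-numbered pair have deviations correlated above 0.1 (-0.137 to 0.169 between KL null and WT vehicle, -0.216 to 0.191 between WT FGF23 and WT vehicle), so no pairing was assumed. Between KL null and WT FGF23, which were not compared, all 4 pairs were above it (0.143 to 0.259). An array correlated best with its own number in 8 of 24 comparisons. With a replicate block the family count was 5 (1 higher, 4 lower), with Ifit1 added, and 0 after FGF23.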

Other observations

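Trim12a, a TRIM gene of the pathway list that did not pass in KL null (log2 difference -1.28, limma adjusted p = 0.158), read 4.59 and 3.88 on KL null replicates 1 and 2 and 6.82 and 6.57 on replicates 3 and 4, against 6.31 to 7.66 with vehicle. All 4 values of Ifi203, an interferon-inducible HIN-200 gene, lay lower in KL null, at 7.04 to 7.60 against 7.89 to 8.24 with vehicle, and it fell by 0.76 (adjusted p = 0.0112). After FGF23 Ifi203 read 7.08, 7.27, 7.95 and 7.64 (difference from vehicle -0.57, adjusted p = 0.241). Ifi203 lies beside other genes of its family, and which of them its probes read was not tested. Both genes were named after their values were seen.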
